A study of Rattus norvegicus with 93 samples.

Results

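Runx2, Sp7, Dlx3, Dlx5, Msx1, Msx2, Twist1 and Atf4 are the transcription factors best known for setting and pacing the osteoblast fate, and they were followed here through the healing of bone defects in the rat skull vault. These 8 genes were found by symbol in the platform annotation, out of 15974 genes measured, and were read by 14 probes: 5 for Runx2, 2 each for Msx2 and Twist1, and 1 each for the others. In mouse, Runx2 is the factor without which no osteoblasts form, and Sp7 (osterix) acts after it to complete the commitment. The homeodomain proteins Dlx3, Dlx5, Msx1 and Msx2 bind many of the same enhancers in skull progenitors, Dlx proteins mostly as activators and Msx proteins mostly as repressors that keep progenitors dividing. Twist1 is a helix-loop-helix protein that holds Runx2 in check in the cranial mesenchyme and sutures, and Atf4 is a leucine zipper protein that couples amino acid supply to the output of mature osteoblasts.

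Each of the 93 samples was the tissue of 1 calvarial defect of a male rat aged 12 weeks. A bone disc had been drilled out over dura that was left in place, and the healing site was taken back with a trephine of the defect's own width. Defects of 8 mm, the critical size that does not bridge on its own, gave 5, 11, 12, 5, 6, 6 and 6 samples at days 1, 3, 5, 7, 10, 14 and 21. Defects of 4 mm, below the critical size, gave 3, 8, 11, 5, 4, 5 and 6 samples at the same days. No strain is given in the labels, all rats were operated on, and unoperated bone was not analysed here.

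RNA was hybridised in 1 colour to whole-genome arrays, and the deposited value of a probe is its ratio to the probe's own median over the 93 arrays. Values are given here as log2 of that ratio: 0 is the probe's median and a step of 1 is a 2-fold difference, so days and sizes can be compared for a gene but levels of different genes cannot. The lowest deposited ratio, 0.01, is a floor (log2 -6.64) that held 13.4% of all values. Median shares of probes at the floor ran from 10.1% to 13.4% of an array in the groups up to day 7 and from 15.7% to 21.2% in those from day 10 on. All tests are limma fits over the 15974 genes with Benjamini-Hochberg adjustment, and a gene is said to rise or fall where its adjusted p was under 0.05. The p-values rest on the spread between the rats sampled. In whole defect tissue, fewer cells of a type and less RNA per cell cannot be told apart. Of 13 osteoblast and osteocyte products, Bglap (osteocalcin) and Col1a1 (collagen I) were among those above the floor on all arrays, Alpl (alkaline phosphatase) was at it on 3, and Phex and Sost were at it on 28 and 29; a ratio to the probe's own median gives no absolute level. By markers chosen for other tissues, 8 arrays carried a raised brain score, and 7 arrays had a low overall level (a median log2 value below -0.7 over probes never at the floor).

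The members fell into 2 kinds by how firmly they were measured. Dlx5, Msx1, Twist1 and Atf4 were never at the floor, and the SD between rats of a group was 0.64 to 0.82 log2 units, below the median of 1.55 over all genes. Runx2, Sp7, Dlx3 and Msx2 sat at the floor on 11 to 17 of the 93 arrays on the probes used, and rats of the same group differed by an SD of 2.30 to 3.12. Over the 96 comparisons of a later day with day 1, 25 passed the test, all of them higher than at day 1. In 8 mm defects 13 of 48 passed, shared by Dlx5, Msx1 and Twist1, where 7.02% of the comparisons of all genes over those days were rises that passed. In 4 mm defects 12 of 48 passed, shared by those genes and Runx2, where 5.68% of all were such rises. Without 4 mm day 1 replicate 13, an array of low overall level, 7 of 48 passed, where 2.27% of all were such rises. Comparisons with day 1 within a size all share the same day 1 arrays, 5 in 8 mm and 3 in 4 mm defects, and are not independent of each other.

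Runx2, the lead regulator of the lineage, lies on chromosome 9 (GRCr8, 23661278 to 23990248), and its other 4 probes did not follow the one used (r = -0.03 to 0.13 over the arrays). RefSeq lists 2 start sites for it in the GRCr8 promoter table. The 300-base windows around them (250 bases before the start and 50 from it on, RefSeq) are shown because Runx2 is known in mouse to bind its own promoter; capitals mark the Runx core, TGTGGT or its complement ACCACA, searched on both strands.
Runx2 promoter, chr9:23664808-23665107, + strand: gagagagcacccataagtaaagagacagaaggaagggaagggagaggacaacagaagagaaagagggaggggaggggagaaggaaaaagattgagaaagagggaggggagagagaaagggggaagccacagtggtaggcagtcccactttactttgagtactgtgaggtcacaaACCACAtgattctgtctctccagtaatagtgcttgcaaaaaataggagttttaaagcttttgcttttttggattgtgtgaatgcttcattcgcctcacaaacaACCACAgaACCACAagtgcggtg
Runx2 promoter, chr9:23742990-23743289, + strand: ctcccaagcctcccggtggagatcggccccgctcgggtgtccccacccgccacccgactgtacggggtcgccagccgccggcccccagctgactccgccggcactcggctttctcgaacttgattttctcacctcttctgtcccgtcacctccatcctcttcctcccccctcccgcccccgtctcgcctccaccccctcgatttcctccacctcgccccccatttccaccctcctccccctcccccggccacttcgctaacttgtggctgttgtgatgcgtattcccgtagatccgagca

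The first window holds 3 Runx cores and the second none, whereas 17.3% of 33469 rat promoters of the same length hold at least 1. In the first window 2 of the cores overlap an E-box (CANNTG), a motif found in 72.1% of promoters. These matches describe letters in the window and are not binding sites shown by these data.

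On the probe with the widest spread (A_44_P146816), Runx2 rose only in 4 mm defects at day 5. The 11 arrays of that group ran from -0.63 through a median of 0.96 to 1.64, against -6.64, -6.64 and -0.99 on the 3 day 1 arrays. The groups did not overlap and the difference was 5.57 ± 1.49 log2 units (SE, limma adjusted p = 0.00909), where 6.22% of all genes rose. A fold is not given, since 2 of the 3 day 1 values are the floor, and the call was lost without 4 mm day 1 replicate 13 (4.63, limma adjusted p = 0.194) or replicate 17 (4.63, adjusted p = 0.103). The same probe in 8 mm defects ran from -0.91 through 0.53 to 1.18 at day 5, against -6.64, -2.50, -2.15, -0.32 and 0.15 at day 1. That difference was 2.90 ± 1.21 (SE, limma adjusted p = 0.117), and the groups overlapped. It passed under quantile normalization (3.40, limma adjusted p = 0.0329) and in the fit of the compared groups alone (2.90, adjusted p = 0.0168). It also passed with ratios under 0.25 raised to 0.25 (1.84, limma adjusted p = 0.0186) and with the mean of all probes (1.325, adjusted p = 0.0390). Probe A_44_P356808, at the floor on 2 arrays, gave 0.43 in 8 mm (limma adjusted p = 0.759) and 1.30 in 4 mm defects (adjusted p = 0.411). On A_44_P146816, day 5 had the highest mean and the smallest spread in both sizes, with no array at the floor. The means were 0.61 ± 0.58 in 8 mm (SD, n = 12) and 0.81 ± 0.64 in 4 mm defects (SD, n = 11).

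After day 5 the same probe scattered from the floor to well above its median in most groups. The 8 mm arrays read -6.64, -2.88, -1.67, -1.20 and 0.47 at day 7, and at day 10 it ran from -6.64 on 2 arrays through a median of -2.94 to 0.75. At day 14 it ran from -2.42 through 0.09 to 2.40, and at day 21 from -6.64 through 0.47 to 2.52. The F test over the 7 days passed in 8 mm (limma adjusted p = 0.0360, where 40.2% of all genes passed) and missed in 4 mm defects (adjusted p = 0.0533, where 33.5% passed). Without 8 mm day 1 replicate 11 it was 0.0517 in 8 mm and 0.0433 in 4 mm defects, and without 8 mm day 7 replicate 15 it was 0.0538 and 0.0453 (limma). In 8 mm defects it also missed without the low-level arrays (limma adjusted p = 0.213) and on the probe with the fewest arrays at the floor (0.357). It missed with arrays centred (0.0617), with array weights (0.0542) and without the less variable genes (0.0519). The call was kept under quantile normalization, with the mean of all probes, with ratios under 0.25 raised and in the fit of the compared groups alone. The 4 mm test also passed without any of 8 other arrays taken out singly, such as day 1 replicate 18 (limma adjusted p = 0.0167). Among 4 mm arrays day 7 gave -6.64, -0.53, -0.48, -0.42 and 2.77, and day 10 gave -6.64, 0.57, 0.80 and 1.18. Day 14 gave -6.64, -2.02, -0.54, -0.25 and 0.59, and day 21 ran from -6.64 through -0.50 to 0.67. At each of these days the groups of both sizes overlapped each other.

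The Runx2 probe A_44_P184297, at the floor on 3 arrays rather than 12, gave a course that the first probe did not. Its 8 mm arrays read 0.04, 0.16, 0.29, 0.33 and 0.97 at day 7, and from 0.00 to 1.50 at day 10, against -6.64, -3.66, -2.55, -1.69 and -1.03 at day 1. Neither later group overlapped day 1. In a fit over all 41089 probes it rose in 8 mm defects at every later day, by 2.61, 3.28, 3.47, 4.04, 4.01 and 2.60 for days 3, 5, 7, 10, 14 and 21 (limma adjusted p = 0.0390, 0.000686, 0.00428, 0.000267, 0.000246 and 0.0204). Of all probes, 1.57%, 8.54%, 5.69%, 6.23%, 7.22% and 7.57% rose at those days. It rose in 4 mm defects at day 7 alone, by 3.63 (limma adjusted p = 0.00909, where 9.37% of probes rose), with 0.68, 0.76, 1.05, 1.23 and 2.09 at day 7 against -3.47, -2.36 and -1.57 at day 1. Another probe, A_44_P259961, fell by 4.17 in 8 mm defects at day 21 (limma adjusted p = 0.0170, where 8.26% of probes fell). Over the 93 arrays the other 4 probes correlated with the first at r = -0.03 to 0.13, and over the 14 group means at 0.10 to 0.42. At day 21 in 8 mm defects A_44_P184297 rose and A_44_P259961 fell, so the direction of Runx2 there depends on the probe read.

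**Figure D1:**
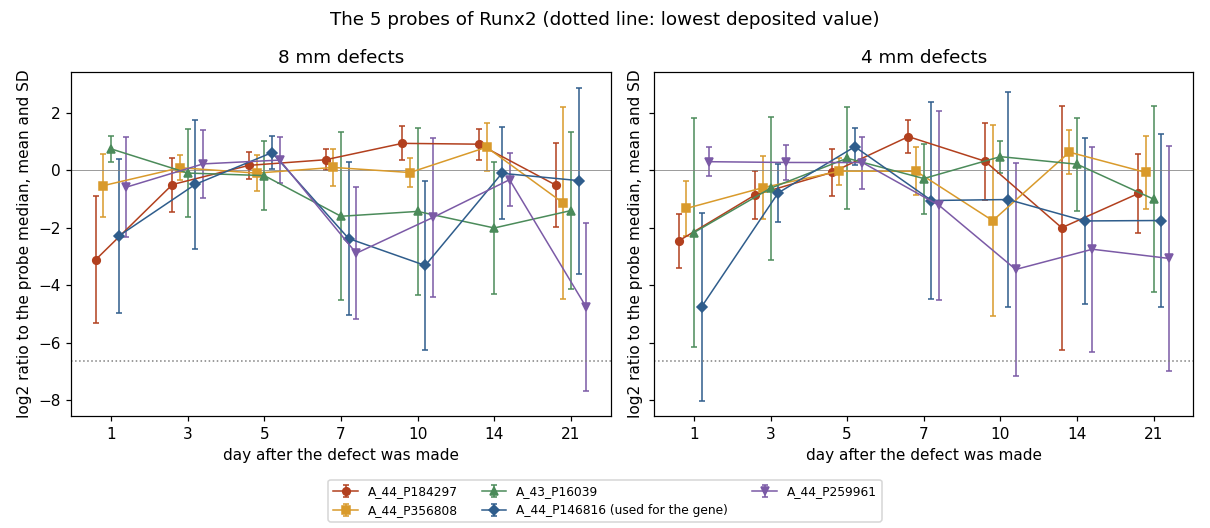
Group means and SDs of the 5 Runx2 probes (y axis, log2 of the ratio to the probe's own median) by day (x axis), 8 mm defects on the left and 4 mm on the right. Probe A_44_P184297 climbs after day 1 in 8 mm defects, while A_44_P146816 and A_44_P259961 do not follow it.

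Sp7, the zinc finger factor that follows Runx2, lies on chromosome 7 (135363193 to 135373376) and had the widest spread of the members, 3.12 log2 units, with 17 arrays at the floor. None of its 12 comparisons with day 1 passed, and the F tests over days gave limma adjusted p = 0.812 in 8 mm and 0.995 in 4 mm defects. At day 14 it ran from -6.64 on 2 arrays through 0.26 to 1.18 in 8 mm defects, against -6.64, -1.87, 0.06, 0.19 and 1.33 at day 1. The 4 mm arrays read -6.64, -6.64, 0.87, 1.66 and 2.24 at day 14, against -6.64, -0.11 and 1.76 at day 1. The groups overlapped over nearly their whole range in both sizes. The highest Sp7 value of the series, 2.68, was at day 10 in an 8 mm defect, in a group that also held an array at -6.64. The 95% interval of the day 14 difference ran from -4.08 to 3.36 log2 units in 8 mm and from -4.52 to 4.44 in 4 mm defects, so large changes either way were not detectable with this probe.

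Dlx5, the homeodomain factor that in mouse activates Runx2 and the osteocalcin gene, gave the largest rise among the calls in 8 mm defects (chromosome 4, 35965579 to 35969973). Its 8 mm arrays read -3.47, -2.85, -2.38, -2.08 and -1.68 at day 1, and ran from -3.36 through -1.23 to 0.55 at day 3 and from -1.38 through -0.00 to 1.11 at day 5. It stood at -1.14, -0.05, 0.40, 0.48 and 0.94 at day 7, from 0.26 through 0.94 to 1.44 at day 10, from -0.33 through 0.87 to 1.94 at day 14, and from 0.16 through 0.99 to 1.09 at day 21. No array from day 5 on was as low as the highest day 1 array. Dlx5 averaged 0.91 ± 0.80 at day 14 (SD, n = 6) and -2.49 ± 0.69 at day 1 (SD, n = 5), a difference of 3.40 ± 0.50 log2 units or 10.6-fold (SE, limma adjusted p = 2.1e-07). It rose at days 5, 7, 10, 14 and 21 by 2.53, 2.62, 3.37, 3.40 and 3.30 log2 units, and day 3 did not pass. Of all genes, 2.28%, 10.7%, 6%, 6.99%, 7.6% and 8.53% rose on days 3, 5, 7, 10, 14 and 21.

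Dlx5 climbed in 4 mm defects as well. It read -2.24, -2.06 and -1.92 at day 1, ran from -1.96 through -0.90 to 0.41 at day 3 and from -1.57 through -0.26 to 1.30 at day 5. It then stood at -0.80, -0.57, 0.44, 0.87 and 1.13 at day 7, and at -0.22, 0.27, 0.99 and 1.05 at day 10. At day 14 it read -1.27, -0.60, 0.47, 1.29 and 1.29, and at day 21 it ran from -0.35 through 0.09 to 1.08. None of these groups from day 5 on overlapped day 1. The rises were 1.93, 2.29, 2.60, 2.31 and 2.35 log2 units at days 5, 7, 10, 14 and 21, or 3.81, 4.88, 6.06, 4.97 and 5.10-fold (limma adjusted p = 0.0141, 0.00556, 0.00558, 0.00742 and 0.00411). Of all genes, 2.16%, 6.22%, 11.2%, 3.14%, 5.05% and 6.29% rose in 4 mm defects on days 3, 5, 7, 10, 14 and 21. The day 5 call was lost without 4 mm day 1 replicate 13 (1.85, limma adjusted p = 0.125) or replicate 18 (2.01, adjusted p = 0.0505). In a fit of the compared groups alone, the calls at days 5, 10 and 14 were lost at the same estimates (limma adjusted p = 0.0505, 0.164 and 0.223).

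Dlx3, a relative of Dlx5 that acts in teeth, hair and bone, lies on chromosome 10 (80561335 to 80566730) and passed no comparison with day 1, with 13 arrays at the floor. It had its highest group mean, 1.30 ± 0.83 (SD, n = 6), in 8 mm defects at day 21, where it ran from 0.15 through 1.27 to 2.62 with no array at the floor. At day 1 it had read -6.64, -4.58, 0.10, 0.14 and 0.21 in that size, and the difference of 3.45 ± 1.61 did not pass (SE, limma adjusted p = 0.125). The 4 mm arrays ran from -6.64 on 3 arrays through -3.24 to 0.56 at day 21, against -6.64, 0.61 and 0.77 at day 1. Both day 21 groups met between 0.15 and 0.56.

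Msx1, a homeodomain factor that in mouse keeps progenitors of teeth and skull in an undifferentiated state, rose as Dlx5 did (chromosome 14, 77185802 to 77189735). Its promoter window from RefSeq is shown with that of Twist1, since these genes moved together; capitals mark the GC box bound by Sp-family factors, GGGCGG or its complement CCGCCC, searched on both strands.
Msx1 promoter, chr14:77185552-77185851, + strand: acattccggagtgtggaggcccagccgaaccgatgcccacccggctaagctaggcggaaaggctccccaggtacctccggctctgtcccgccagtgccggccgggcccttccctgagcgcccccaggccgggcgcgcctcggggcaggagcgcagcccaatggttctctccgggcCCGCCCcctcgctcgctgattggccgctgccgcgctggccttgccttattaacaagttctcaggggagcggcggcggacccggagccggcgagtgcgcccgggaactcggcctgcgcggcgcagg
Twist1 promoter, chr6:56402059-56402358, + strand: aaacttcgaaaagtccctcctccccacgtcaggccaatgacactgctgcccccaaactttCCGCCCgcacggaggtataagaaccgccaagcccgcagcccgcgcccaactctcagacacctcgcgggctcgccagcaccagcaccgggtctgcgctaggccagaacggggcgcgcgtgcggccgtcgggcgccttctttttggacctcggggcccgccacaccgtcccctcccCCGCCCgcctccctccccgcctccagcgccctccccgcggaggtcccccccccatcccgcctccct

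The Msx1 window holds 1 GC box and the Twist1 window 2, against at least 1 in 33.1% of rat promoters. The Msx2 window and the second Runx2 window hold 1 each, so the motif is not particular to the genes that moved together. Over the 14 group means Msx1 correlated with Msx2 at r = 0.151 and with Runx2 at 0.300. Neither the Msx1 nor the Twist1 window holds a Runx core, an E-box or the homeodomain core TAATTG or CAATTA, the last of which is present in 8.2% of promoters. Promoter windows were found for 5 of the 8 members, and Sp7, Dlx3 and Dlx5 are only named.

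Msx1 in 8 mm defects read -2.66, -2.44, -1.73, -1.18 and -1.04 at day 1, ran from -3.45 through -0.74 to 0.78 at day 3 and from -1.47 through 0.01 to 1.12 at day 5. It stood at 0.13, 0.24, 0.36, 0.63 and 1.56 at day 7, from -0.18 through 1.38 to 1.92 at day 10, from -0.12 through 1.65 to 1.76 at day 14, and from 0.87 through 0.99 to 2.01 at day 21. Groups from day 7 on lay wholly above day 1, while day 5 overlapped it. The average was 1.37 ± 0.74 at day 14 (SD, n = 6) and -1.81 ± 0.73 at day 1 (SD, n = 5), a difference of 3.18 ± 0.46 or 9.06-fold (SE, limma adjusted p = 1.3e-07). Msx1 rose at days 5, 7, 10, 14 and 21, by 1.81, 2.39, 2.99, 3.18 and 2.95 log2 units. The fold was 3.50, 5.25, 7.92 and 7.74 on days 5, 7, 10 and 21.

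Msx1 in 4 mm defects read -2.83, -2.18 and -1.98 at day 1, ran from -1.46 through -0.78 to -0.56 at day 3 and from -1.87 through -0.44 to 0.73 at day 5. It stood at -0.09, 0.10, 0.57, 0.98 and 1.91 at day 7, at -0.80, -0.07, 0.42 and 0.52 at day 10, and at 0.16, 0.86, 0.99, 1.05 and 1.18 at day 14, and ran from -0.61 through 0.85 to 1.58 at day 21. No later group overlapped day 1 from day 5 on. The rises were 1.90, 3.02, 2.35, 3.18 and 2.97 log2 units at days 5, 7, 10, 14 and 21, or 3.72, 8.12, 5.09, 9.04 and 7.83-fold (limma adjusted p = 0.00724, 3.8e-05, 0.0067, 2.6e-05 and 4.2e-05). Without 4 mm day 1 replicate 13 the calls at day 5 (1.65, limma adjusted p = 0.145) and day 10 (2.10, adjusted p = 0.0750) were lost, and the day 10 call was also lost in the fit of the compared groups alone (adjusted p = 0.244). The F test over days gave Msx1 the lowest adjusted p of the members in both sizes, 2.6e-10 in 8 mm and 4.0e-06 in 4 mm defects (limma).

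Msx2, in which a gain-of-function mutation causes premature fusion of the human skull sutures, lies on chromosome 17 (11102284 to 11107949) and was at the floor on 11 arrays of the probe used. In 8 mm defects at day 5 it ran from -1.33 through 0.49 to 1.63, against -6.64, -6.64, -1.43, -0.48 and 0.51 at day 1. The difference of 3.44 ± 1.24 did not pass (SE, limma adjusted p = 0.0563), and the groups overlapped. It passed without any 1 of 7 single arrays, with adjusted p from 0.0213 (8 mm day 1 replicate 13) to 0.0493 (4 mm day 7 replicate 14). It also passed under quantile normalization (3.45, limma adjusted p = 0.0384) and with the mean of all probes (3.18, adjusted p = 0.00240). In the fit of the compared groups alone it passed as well (adjusted p = 0.0250). It missed with arrays centred, with array weights, with ratios under 0.25 raised and without the low-level arrays. The 4 mm arrays ran from -3.04 through -0.68 to 1.10 at day 5, against -1.14, -0.26 and 0.12 at day 1, a difference of -0.36 (limma adjusted p = 0.951). Its other probe, A_44_P716637, rose in 8 mm defects by 2.92 at day 5 and 3.31 at day 21 in the fit over all probes (limma adjusted p = 0.0459 and 0.0323). The Msx2 probes correlated at r = 0.05 over the 93 arrays, and at day 7 in 4 mm defects they gave opposite signs, 3.70 on A_44_P716637 (limma adjusted p = 0.0486, among genes) and -1.59 on A_43_P15497 (adjusted p = 0.597).

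**Figure D2:**
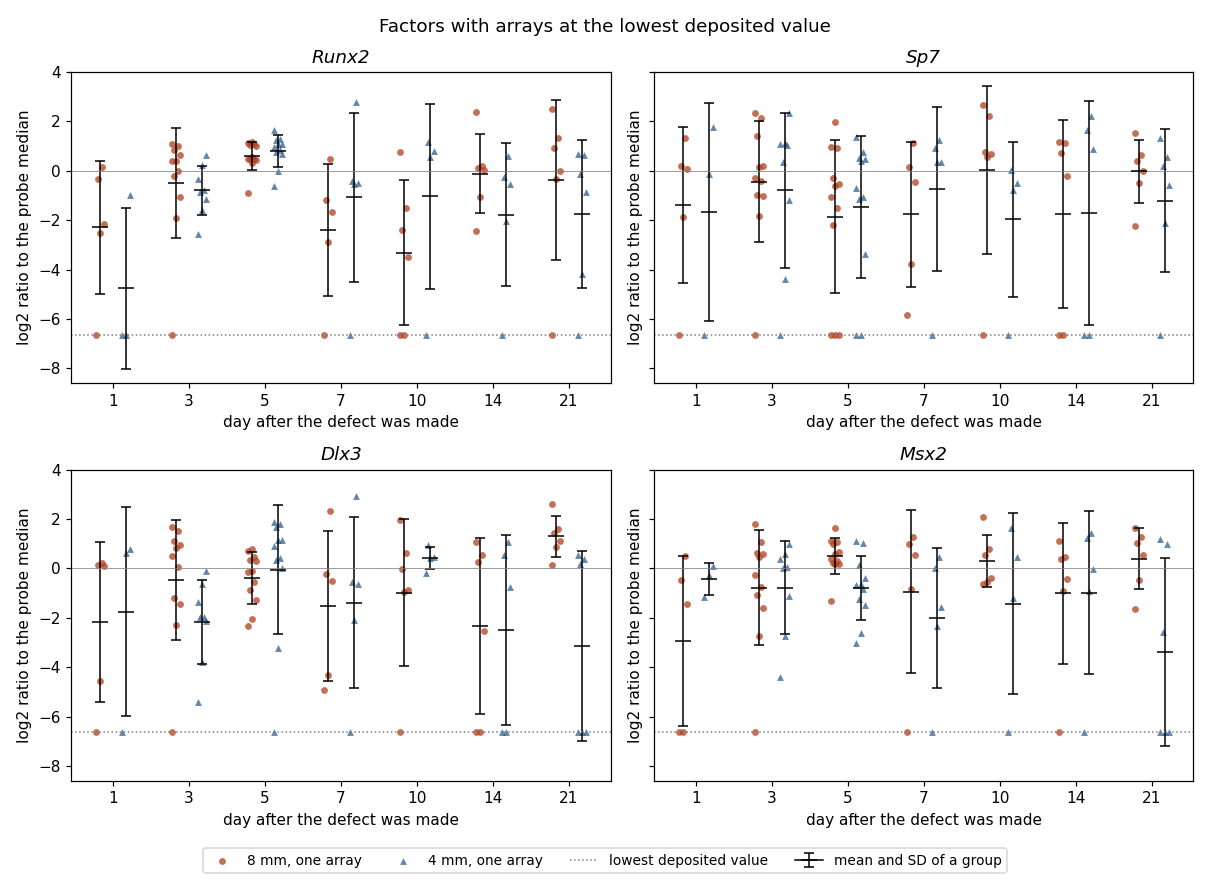
Log2 ratios (y axis) of Runx2, Sp7, Dlx3 and Msx2 on every array by day (x axis), 8 mm defects left of 4 mm at each day; points are arrays, and bars are the mean and SD of a group. Arrays at the floor of -6.64 are present in both sizes for each of the 4 genes, beside arrays of the same group above 0.

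Twist1, the factor whose loss of a copy fuses the coronal sutures in mouse and human, rose in 8 mm defects from day 10 on, on the probe used (chromosome 6, 56402309 to 56404303). It read -1.77, -1.65, -0.60, -0.44 and -0.01 at day 1, ran from -2.49 through -0.99 to 0.58 at day 3 and from -1.24 through -0.43 to 0.19 at day 5. It stood at -0.75, 0.31, 0.54, 0.64 and 0.80 at day 7, from -0.14 through 0.50 to 1.86 at day 10, from 0.06 through 1.29 to 1.87 at day 14, and from 0.47 through 0.71 to 1.80 at day 21. The day 14 and day 21 groups lay wholly above day 1, and day 10 overlapped it. Twist1 rose by 1.62 at day 10, 2.09 at day 14 and 1.74 at day 21, or 3.08, 4.25 and 3.34-fold (limma adjusted p = 0.0109, 0.00057 and 0.00371). The day 10 call was lost without 8 mm day 1 replicate 16 (1.43, limma adjusted p = 0.0531) and in the fit of the compared groups alone (1.62, adjusted p = 0.180).

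Twist1 rose in 4 mm defects at day 7, on the probe used. It read 0.67, 0.73, 0.91, 1.18 and 1.19 at day 7, against -1.32, -0.83 and -0.79 at day 1, with no overlap, a difference of 1.91 ± 0.55 or 3.77-fold (SE, limma adjusted p = 0.0119). Between those days it ran from -0.56 through 0.02 to 0.45 at day 3 and from -0.97 through -0.29 to 0.28 at day 5. Later it read -0.52, 0.32, 0.90 and 1.04 at day 10, then -3.75, 0.22, 0.29, 0.83 and 1.20 at day 14, and ran from -0.75 through 0.96 to 1.12 at day 21. The day 14 array at -3.75, replicate 17, is an array of raised brain score and was also the lowest of its group on the other Twist1 probe, at -1.33. Day 21 stood 1.52 above day 1 and did not pass (limma adjusted p = 0.0567). Without replicate 17 both day 14 (1.61, limma adjusted p = 0.0194) and day 21 (1.52, adjusted p = 0.0146) passed, and the day 7 call was lost without 4 mm day 1 replicate 13 (1.75, adjusted p = 0.108). The Twist1 probes correlated at r = 0.857 over the arrays, and the other, A_44_P200042, also rose in 8 mm defects at days 10, 14 and 21, by 1.59, 2.14 and 1.79, and in 4 mm defects at day 7, by 2.09. On it Twist1 rose at day 5 of 8 mm defects too, by 1.24 (limma adjusted p = 0.0192). At day 5 of 4 mm defects it stood 1.39 above day 1 on that probe. This passed in the fit over genes that read Twist1 by A_44_P200042 (limma adjusted p = 0.0374).

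Atf4, which in mouse drives osteocalcin expression and amino acid uptake in mature osteoblasts, had group means between -0.64 and 0.57 at all days in both sizes (chromosome 7, 113684681 to 113686739). The 8 mm arrays read -1.56, 0.06, 0.31, 0.40 and 0.65 at day 1, and ran from -3.29 through -0.10 to 0.85 at day 3 and from -0.85 through -0.04 to 0.92 at day 5. It stood at -0.93, -0.77, -0.73, -0.45 and -0.06 at day 7, from -1.37 through 0.03 to 0.56 at day 10, from -0.99 through -0.22 to 0.15 at day 14, and from -1.94 through -0.55 to 0.20 at day 21. The lowest arrays at days 1 and 3, replicates 11 and 18, are among the 7 arrays of low overall level. None of the 12 comparisons with day 1 passed, and the F tests over days gave limma adjusted p = 0.515 in 8 mm and 0.649 in 4 mm defects. Without the low-level arrays, Atf4 fell in 8 mm defects by 0.94 at day 7 and 0.99 at day 21 (limma adjusted p = 0.0357 and 0.0102), so the missed calls depend on those arrays.

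Atf4 in 4 mm defects read -0.84, 0.13 and 0.29 at day 1, ran from -0.38 through 0.18 to 0.49 at day 3 and from -0.43 through -0.00 to 0.57 at day 5. It gave 0.25, 0.38, 0.62, 0.63 and 0.99 at day 7, then -1.04, 0.13, 0.40 and 0.95 at day 10 and -0.47, 0.03, 0.16, 0.31 and 1.01 at day 14, and ran from -1.13 through -0.08 to 0.05 at day 21. Neighbouring groups in the order of the 14 means never differed by more than the larger of their SDs, for Atf4 as for Dlx5, Msx1 and Twist1.

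**Figure D3:**
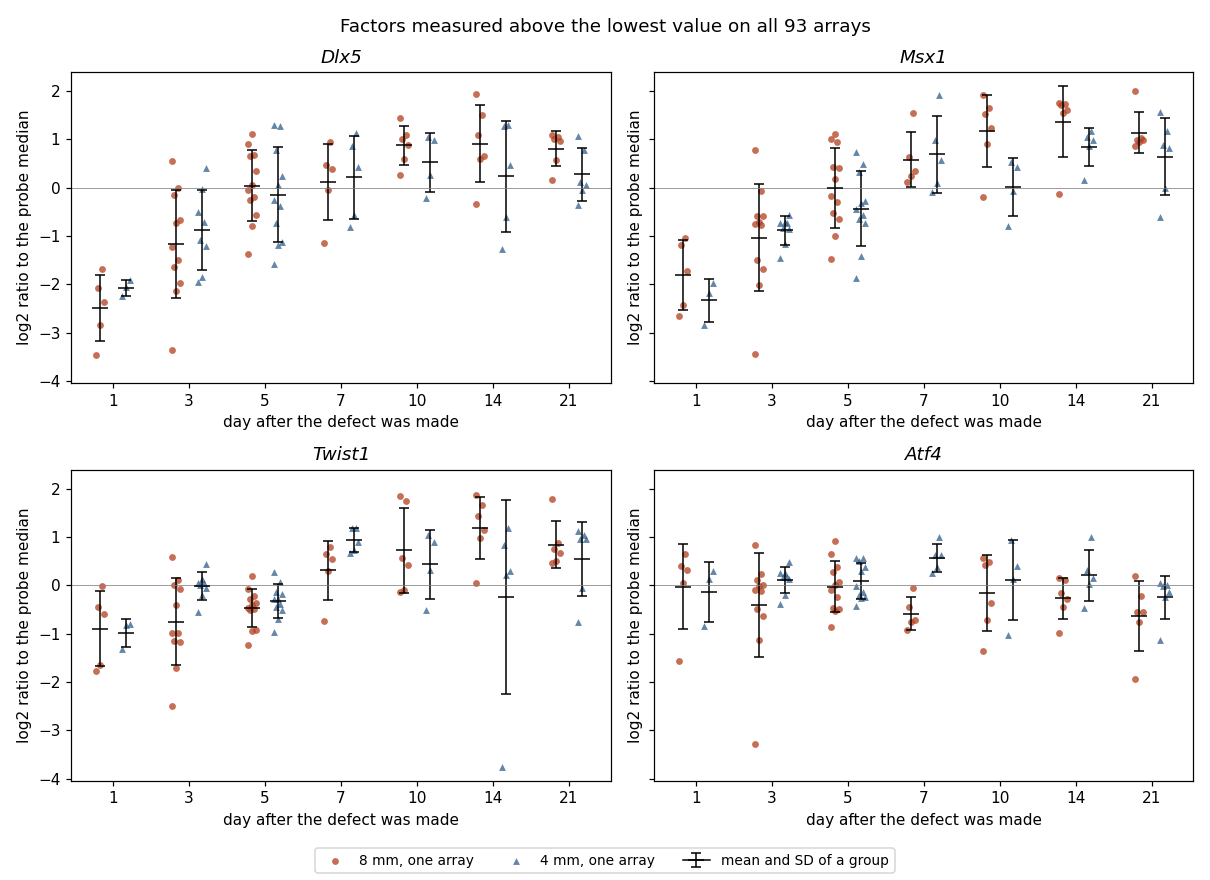
Log2 ratios (y axis) of Dlx5, Msx1, Twist1 and Atf4 on every array by day (x axis), 8 mm defects left of 4 mm at each day; points are arrays, and bars are the mean and SD of a group. Dlx5 and Msx1 climb from day 1 to day 14 in 8 mm defects, to means of 0.91 and 1.37, while Atf4 stays near 0.

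Defect size was the comparison the study was built on, and no member passed it. None of the 56 tests of 8 mm against 4 mm defects at a single day passed in the limma fit, and 6 of them had an unadjusted p under 0.05. Of all genes, 0% passed on days 1, 3 and 5 each, and 0.369%, 0.263%, 1.63% and 2.4% on days 7, 10, 14 and 21. Averaged over the 7 days none of 8 passed (2 at an unadjusted p under 0.05), where 0.413% of genes did, and none of 8 passed the test of whether the day course differs between sizes (1 unadjusted), where 0.538% did. Small counts of calls were thus general to this comparison.

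Among the members never at the floor, the differences with the lowest adjusted p were in Twist1, Atf4 and Msx1. Twist1 at day 14 was 1.44 log2 units higher in 8 mm defects (95% interval 0.53 to 2.34, limma adjusted p = 0.0864), but without 4 mm replicate 17 the difference was 0.56 (adjusted p = 0.763). Without 4 mm day 14 replicate 16 or 20 it passed, at 1.70 and 1.80 (limma adjusted p = 0.0360 and 0.0207). Atf4 at day 7 was lower in 8 mm defects by 1.16 log2 units, with a difference of -1.16 (95% interval -1.98 to -0.34, limma adjusted p = 0.197), and the highest 8 mm array, at -0.06, lay below the lowest 4 mm array, at 0.25. Without the arrays of low overall level that difference passed at the same size (limma adjusted p = 0.0107), and with array weights it was -1.20 (adjusted p = 0.00407). Over all settings the day 7 difference of Atf4 ran from -1.29 to -0.78. Arrays as a whole differed the same way at day 7, with a median difference of -0.40 over all genes. The median array level was -0.13 in 8 mm and 0.46 in 4 mm defects, and its part in the Atf4 difference was not tested. Averaged over days, Atf4 differed by -0.41 (95% interval -0.70 to -0.12, limma adjusted p = 0.213) and Msx1 by 0.41 (0.07 to 0.75, adjusted p = 0.284). Msx1 passed when each array was centred on its own median (0.49, limma adjusted p = 0.0498).

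For the other members the interval of the averaged difference is the plainest statement of what was seen. It was 0.13 for Dlx5 (95% interval -0.23 to 0.50) and 0.09 for Twist1 (-0.25 to 0.42), so that a mean difference of more than 0.50 log2 units lay outside both. It was much wider for the genes often at the floor: 0.28 for Runx2 (-0.73 to 1.30), 0.34 for Sp7 (-1.03 to 1.71), 0.57 for Dlx3 (-0.60 to 1.75) and 0.76 for Msx2 (-0.27 to 1.80). At day 21 Dlx3 differed by 4.43 (1.38 to 7.48, limma adjusted p = 0.103) and Msx2 by 3.78 (1.10 to 6.46, adjusted p = 0.117). With ratios under 0.25 raised to 0.25 these were 2.11 and 1.37 (limma adjusted p = 0.122 and 0.324), and the other Msx2 probe gave 0.48 (adjusted p = 0.879). Each had 3 arrays at the floor in 4 mm defects and none in 8 mm defects.

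**Figure D4:**
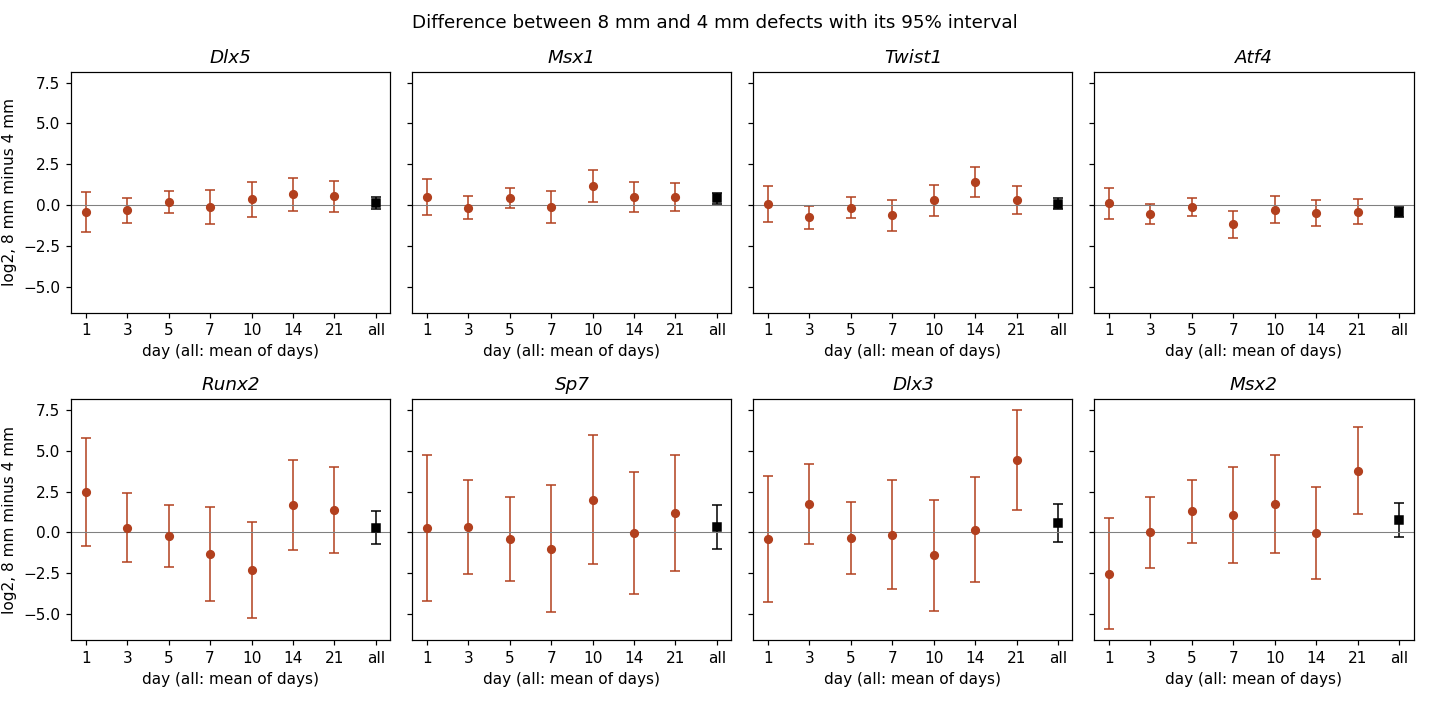
Difference of 8 mm minus 4 mm defects (axis in log2 units) for each member at each day and averaged over days; points are limma estimates and bars 95% intervals. Intervals of Dlx5, Msx1, Twist1 and Atf4 are narrow and those of Runx2, Sp7, Dlx3 and Msx2 several units wide, and no difference passed after adjustment.

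Products of osteoblasts and osteocytes include known targets of these factors. Of 13 such genes, 9 rose in 8 mm defects at day 14, where 7.6% of all genes rose, and 8 rose in 4 mm defects, where 5.05% did. Ibsp (bone sialoprotein) was up 6.85 log2 units and Bglap 6.70 in 8 mm defects, and Col1a1 (2.78) and the matrix protein Sparc (1.70) were the smallest rises. In 4 mm defects Ibsp was up 7.65 and Bglap 5.22, with Sparc (2.02) and the parathyroid hormone receptor Pth1r (1.95) lowest. The median change was 3.18 in 8 mm and 2.36 in 4 mm defects, beside 0.02 and -0.07 over all genes. Col1a2, Phex, Sost and Spp1 did not pass at day 14 in either size, and Mepe did not in 4 mm defects. At day 21, 9 rose in 8 mm and 6 in 4 mm defects, where 8.53% and 6.29% of all genes rose, and Sost, which encodes the osteocyte inhibitor sclerostin, fell in 8 mm defects by 5.27, where 10% of all genes fell. The medians over the 8 members were 2.01 in 8 mm and 0.54 in 4 mm defects at day 14.

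Over the 14 group means, the mean log2 ratio of the 13 products moved with Msx1 (r = 0.954), Dlx5 (r = 0.949) and Twist1 (r = 0.813), and less with Runx2 (r = 0.361), Dlx3 (0.235), Msx2 (0.233), Sp7 (0.184) and Atf4 (-0.119). These are descriptions over groups that share a time course. When each array was set against its own group mean, Dlx5 still tracked the products (r = 0.690 over 93 arrays), Msx1 did so weakly (0.216) and Twist1 less (0.132). Each factor and the products were read from the same array and share its overall level. Among the members, Dlx5 and Msx1 had the most alike courses (r = 0.949 over group means), followed by Msx1 with Twist1 (0.861) and Dlx5 with Twist1 (0.842). With each array set against its group mean, these pairs stood at 0.378, 0.522 and 0.244. The highest pairs were then Twist1 with Atf4 (0.598) and Msx1 with Atf4 (0.581).

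**Figure D5:**
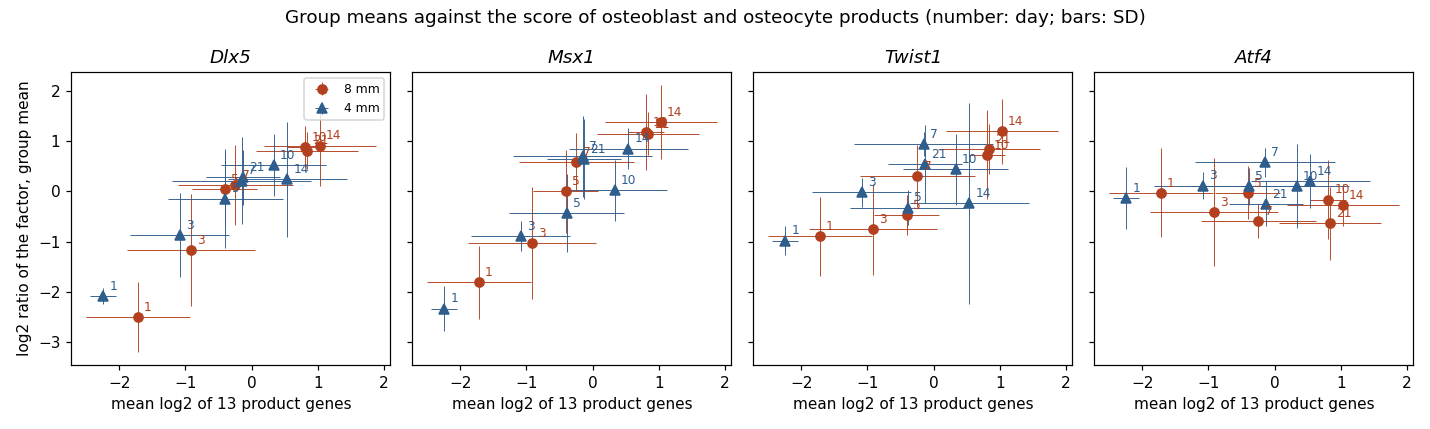
Group means of Dlx5, Msx1, Twist1 and Atf4 (y axis, log2 ratio) against the mean log2 ratio of 13 osteoblast and osteocyte products (x axis), with SD bars both ways; numbers are days, circles 8 mm and triangles 4 mm defects. The group means of Dlx5, Msx1 and Twist1 climb with the products (r = 0.949, 0.954 and 0.813), and those of Atf4 do not (r = -0.119).

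Of 13 listed partners and regulators of Runx2, 10 were measured, and none passed at day 14 in either size, though single estimates were as large as -5.44 for Twist2 in 8 mm defects and -3.12 for the signal transducer Smad1 in 4 mm defects. At day 21 in 8 mm defects 4 fell, where 10% of all genes fell: Twist2, a relative of Twist1 (-6.33, at the floor on 46 arrays), the signal transducer Smad5 (-6.25, at the floor on 15), the Runx partner subunit Cbfb (-2.30) and the repressor Zfp521 (-1.57). In 4 mm defects the ubiquitin ligase Smurf1 fell by 2.08, where 2.58% of all genes fell. The median of the list was -1.86 in 8 mm defects at day 21, beside -0.33 over all genes.

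Among 11 measured relatives of the members, Sp1 rose by 2.04 in 8 mm defects at day 14, where 7.6% of all genes rose. At day 21 in that size Dlx1 rose by 1.58, where 8.53% rose, and Sp3 (-3.56) and Twist2 (-6.33) fell, where 10% fell. None passed in 4 mm defects at those days. Of 11 genes of BMP signalling and its early targets, the inhibitors of helix-loop-helix proteins Id2 (1.45 at day 14, 1.57 at day 21) and Id3 (1.27 at both) rose in 8 mm defects, where 7.6% and 8.53% of all genes rose. None passed in 4 mm defects, where 5.05% and 6.29% rose, Id3 standing at 1.51 at day 14 (limma adjusted p = 0.0570) and Id2 at 0.77 (adjusted p = 0.345). Whether these changes differed between sizes was not tested. Between sizes, averaged over days, the inhibitory Smad6 was 1.37 higher in 8 mm defects (limma adjusted p = 0.0476), 1 of 11 where 0.413% of all genes passed.

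Of 11 genes of the amino acid response downstream of Atf4, a few fell and none rose. The kinase-like Trib3 fell by 2.05 and the mTOR inhibitor Ddit4 by 1.62 in 8 mm defects at day 14, where 3.46% of all genes fell. Trib3 (1.87 lower) and the translation repressor Eif4ebp1 (1.80 lower) passed at day 21 in 8 mm defects, where 10% of all genes fell. In 4 mm defects Trib3 fell by 2.27 at day 21, where 2.58% fell. Among 7 measured factors of other mesenchymal fates, the cartilage factor Sox9 rose by 7.01 in 8 mm defects at day 14 (at the floor on 23 arrays). The fat cell factor Cebpa fell there by 3.32, where 7.6% of all genes rose and 3.46% fell. In 4 mm defects at day 14 Cebpa fell by 4.29 and the muscle factor Myod1 by 7.17, where 2.92% of all genes fell. None of the 7 passed at day 21.

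By the rule of the highest correlation over the 14 group means, the genes most like Dlx5 were Omd (0.979), Fmod (0.978) and Bace2 (0.977), and those most like Msx1 were Col8a2 (0.985), Wdr86 (0.980) and Gstm5 (0.980). Twist1 was most like C4a (0.961), Angpt1 (0.939) and Naaa (0.931), and Atf4 most like Tprkb (0.911), Atp6v1g1 (0.910) and Cox5a (0.902). Omd and Fmod encode small proteoglycans of the bone and connective tissue matrix, Col8a2 a short-chain collagen and Angpt1 a ligand of the endothelial receptor Tek. Matches to the noisier members were looser, with Runx2 nearest to Reps1 (0.859), Dlx3 to Slc35c2 (0.829), Msx2 to Rgs11 (0.822) and Sp7 to Tsacc (0.775). Over the 93 arrays the Runx2 match fell to 0.225 and the Sp7 match to 0.004.

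Markers of other cells moved over the same days, and their part in the members' courses was not tested. The mean log2 ratio of 9 skeletal muscle markers ran from -3.17 to -2.13 at day 21 and from -1.31 to 5.36 at day 1 in 8 mm defects, and from -3.57 to -1.12 at day 21 and from 0.99 to 7.17 at day 1 in 4 mm defects. That of 8 neutrophil markers ran from -1.51 to 1.35 at day 21 and from 1.16 to 2.54 at day 1 in 8 mm defects, and from -4.14 to 1.91 and from 0.60 to 2.01 in 4 mm defects. Single markers were at the floor on 0 to 11 arrays for meninges, 0 to 20 for muscle, 0 to 28 for neutrophils and 2 to 47 for brain. Of 7 meninges markers, 3 rose in 8 mm defects at day 14 (Igf2 by 6.89, Ptgds by 4.69 and Foxc1 by 3.08), where 7.6% of all genes rose, and Slc22a6 stood at -3.07 without passing (limma adjusted p = 0.123). In 4 mm defects 2 rose, Ptgds by 7.24 and Igf2 by 6.50, where 5.05% did. In 8 mm defects the score ran from -0.11 to 2.90 at day 21 and from -2.73 to 0.39 at day 1. The 4 mm arrays ran from 0.55 to 2.46 at day 21 and from -2.97 to -1.98 at day 1. Averaged over days, 3 of the 7 were higher in 8 mm defects, Cldn11 by 1.54, Foxc1 by 1.37 and Igf2 by 1.31 (limma adjusted p = 0.0421, 0.00339 and 0.0253), where 0.413% of all genes passed. Within groups Msx1 followed the meninges score at r = 0.368 over 93 arrays, and Twist1 the brain score of 7 markers at -0.369. That brain score ran from -3.51 to -0.49 in 8 mm and from -1.37 to 4.69 in 4 mm defects at day 21. Without the 8 arrays of raised brain score all 32 calls of the members, the 25 against day 1 and 7 of the F tests over days, were kept.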

How the data were processed

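Tissue from 93 calvarial defects was read on 1-colour Agilent rat arrays, 1 array per defect, per the labels' protocols. The authors deposited 1 table of 41090 probes; from its values, each entry is a linear ratio to the probe's median over the arrays (87.8% of probes have a median of 1 within 0.005) with a lowest value of 0.01. The sources used here do not give the background correction or the scaling between arrays, and the number of arrays, not a read depth, limits precision. Tests had been planned for log values; since the deposited values are ratios, log2 was taken with no pseudocount.

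Probes carrying 1 symbol numbered 20932 and unnamed ones 20158; 17415 were matched to current RefSeq symbols (GRCr8). A gene with several probes was read by that of largest interquartile range, giving 15974 genes. limma 3.58.1 in R 4.3.3 fitted 14 groups of size and day in 1 model with an empirical Bayes prior of 1.9 degrees of freedom, Benjamini-Hochberg adjustment within each comparison and a threshold of 0.05. A fit over all 41089 named or unnamed probes with values gave the results for single probes. The script was tested on simulated data. From a pathway list up to 4 genes are named, the 2 highest and 2 lowest changes among those that passed; like genes are the 3 of highest Pearson correlation over group means among those at the floor on at most 9 arrays. Smad6, Id2, Id3 and the meninges, partner and product genes given outside that rule were singled out after their values were seen. The members and lists were chosen with earlier results of these data known. Labels give each rat a number; no array pair correlated above 0.623, so none was counted as a duplicate.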

Additional observations from a re-analysis of the deposited data

Results flagged for a closer look

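In 140 groups of 4 to 10 arrays, taken over the 14 probes of the 8 factors, 23 arrays stood apart from the rest of their group by Dixon's test, where chance alone gives about 5% of groups. Of these, 12 were at the floor, -6.64 in log2 ratio. They were Runx2 on probe A_44_P146816 (8 mm day 21 replicate 13 and 4 mm day 10 replicate 13) and on probe A_43_P16039 (8 mm day 14 replicate 10, 8 mm day 21 replicate 13 and 4 mm day 3 replicate 22). Sp7 stood apart in 8 mm day 10 replicate 14, 4 mm day 7 replicate 15 and 4 mm day 10 replicate 10, and Dlx3 in 8 mm day 10 replicate 13. Msx2 did so on probe A_43_P15497 in 8 mm day 7 replicate 13 and day 14 replicate 14, and on probe A_44_P716637 in 4 mm day 14 replicate 20.

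The other 11 were above the floor. Twist1 in 4 mm day 14 replicate 17 stood at -3.75 on one probe and -1.33 on the other, both the lowest of the group. In 8 mm day 21 replicate 13 Twist1 stood at 1.80 and Msx1 at 2.01, both the highest, on the array where Runx2 was at the floor on 2 probes. Twist1 was at -0.71 in 4 mm day 3 replicate 13 on probe A_44_P200042, and Msx1 at -0.12 in 8 mm day 14 replicate 15. Atf4 was at -1.56 in 8 mm day 1 replicate 11 and at -1.13 in 4 mm day 21 replicate 15. In 4 mm day 3, Runx2 stood at -1.06 in replicate 16 on probe A_44_P259961 and at -3.13 in replicate 21 on probe A_44_P356808, and Msx2 at -5.58 in replicate 21 on probe A_44_P716637. No cause of these values was tested.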

How the results depend on the processing

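Of the 32 calls on the 8 factors, all 32 were kept under quantile normalization, with the mean of all probes, with ratios under 0.25 raised to 0.25 and without the arrays of high brain score. Centring each array and array weights each kept 31, leaving out the low-level arrays 29, the fit of the compared groups alone 26 (losing Dlx5 at days 5, 10 and 14 and Msx1 at day 10 in 4 mm defects, Twist1 at day 10 in 8 mm defects and the Twist1 F test over days in 4 mm defects, limma adjusted p = 0.0592; it gives no value for the averaged size or the size by day tests), the probe with the fewest arrays at the floor 30 (chosen after seeing the data), genes above the floor throughout 30 of 30 with a value, and leaving out the less variable genes 23 of 26. The Runx2 F test over days in 8 mm defects was lost with centring, with array weights and without the low-level arrays. It was also lost without the less variable genes and on the probe with the fewest arrays at the floor. The only value of a single factor to change sign and pass was Msx2 at day 7 against day 1 in 4 mm defects, 3.70 on its other probe. Values that did not pass changed sign as well. The size difference of Runx2 at day 10, for example, ran from -4.17 to 1.675 over the settings. Size tests of the factors at single days passed 0 times as reported, 1 time with arrays centred, 1 with array weights, 2 without the low-level arrays, and 0 to 1 with a single array left out; averaged over days, 1 passed with arrays centred. With a single array left out, calls against day 1 numbered 12 to 15 of 48 in 8 mm defects and 7 to 14 of 48 in 4 mm defects. F tests over days numbered 3 to 4 in 8 mm and 2 to 4 in 4 mm defects, and 2 in 8 mm defects without the less variable genes, where fewer genes were tested. Over all genes, calls of size at single days were 745 as reported, 190 under quantile normalization, 129 without the less variable genes, 2679 with array weights, 44 in fits alone, 347 with ratios raised, 252 above the floor throughout and 2346 without the low-level arrays. Averaged over days they were 66, against 202 centred, 24 without the less variable genes, 178 with weights and 37 to 98 with an array left out. Calls against day 1 were 10153 in 8 mm defects (2892 without the less variable genes, 15452 with weights, 4811 in fits alone) and 6736 in 4 mm defects (1650, 13361 with weights, 3015 without day 1 replicate 13). F tests over days called 6426 and 5350 genes (2240 and 1847 without the less variable genes, 3508 and 3156 above the floor throughout), and size by day 86 (32 quantile, 177 centred, 17, 348 with weights, 33 above the floor, 292 without the low-level arrays, 176 without the high brain arrays, 73 to 176 with an array left out). Centring moved the share of higher calls between sizes at day 7 to 40.6% from 15.3% and at day 21 to 38.9% from 22.5%, and the median change of all genes at day 7 against day 1 in 4 mm defects to -0.04 from 0.48. With the rat number as a replicate block all 32 calls were kept and none was gained, and size by day called 134 genes. Whether a shared number marks 1 rat with both defects is not stated in the labels, and these correlations do not settle it. The 34 same-number pairs correlated at a median of 0.006 (3 over 0.1) and 316 other pairs at -0.003 (10 over 0.1). Of 34 samples of 8 mm defects with a partner, 9 correlated best with their own number. Among values of single factors, 1969 kept their side of the threshold under the other settings and were not counted as moved. Some of these changed sign, such as Atf4 at day 3 against day 1 in 4 mm defects, which ran from -0.10 to 0.47. Of the rest 43 newly passed, 16 no longer passed, 25 moved and 1 changed sign and passed. The cause was not tested.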
